A study of Mus musculus with 5 samples.

Results

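The colony stimulating factors are the secreted proteins that keep macrophages, monocytes and neutrophils alive and make them mature, and their receptors are the surface proteins through which those cells sense them. In these data they are 8 genes, chosen by exact gene symbol among the 42454 features of the deposited count tables: the 4 ligands Csf1, Il34, Csf2 and Csf3, and the 4 receptor chains Csf1r, Csf2ra, Csf2rb and Csf3r. Newborn C57BL/6J mice under 12 h old were kept for 3 days in room air or in hyperoxia (>95% O2) and then in room air. Whole-lung cells were captured with the 10x Chromium system at postnatal day 7 (pnd7) and day 60 (pnd60), which gave the air pnd7, hyperoxia pnd7, air pnd60 and hyperoxia pnd60 libraries. The fifth library held C12FDG-positive cells sorted at pnd7 from a suspension pooled from 3 hyperoxia-exposed lungs, C12FDG being a dye that becomes fluorescent where β-galactosidase, an enzyme used as a mark of senescence, is active. Each condition was 1 library, and the number of mice behind each unsorted library is not given in the sources used here. The cells compared here were 2308 for air pnd7, 1246 for hyperoxia pnd7, 493 for the sorted library, 4397 for air pnd60 and 4756 for hyperoxia pnd60.

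Csf1 and Il34 are alternative ligands of Csf1r, a receptor tyrosine kinase of monocytes and macrophages. Csf2, also named GM-CSF, binds a receptor made of the specific chain Csf2ra and the signalling chain Csf2rb, which the receptors of interleukins 3 and 5 share. In the lung, GM-CSF is made largely by the alveolar epithelium and drives the maturation of alveolar macrophages after birth, and its loss lets surfactant accumulate in the airspaces. Csf3, also named G-CSF, acts through Csf3r on neutrophils and their precursors.

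Levels are given as CPM, the number of molecules of a gene per 1000000 molecules counted in the cells of a library or cell class. Intervals are exact 95% intervals and cover counting error only, since 1 library per condition leaves no spread between mice, and no p-value is given. A ratio between libraries was called past the fold where it was at least 2-fold and its interval on the log2 scale left out 0. The libraries held 7880365 to 16648251 counts after filtering. The median cell had 3915 counts in air pnd7, 7120 in hyperoxia pnd7, 15529 in the sorted library, 2168 in air pnd60 and 2316 in hyperoxia pnd60. Any pair of libraries shared 0 to 4 cell barcodes. Hemoglobin genes took 3.38% of the counts in air pnd7 and 2.22% in hyperoxia pnd7, and 0.296% or less in the others. Sums over a whole library mix cell classes, so that fewer cells of a type and less RNA per cell cannot be told apart in them.

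Cells were clustered without the 8 genes and without 50 further genes of the pathway, and clusters were named from marker genes with the suffix "-like". Of 50 clusters, 46 were named in 26 classes, and 453 of all 13200 cells were left unnamed. All 12 alveolar macrophage markers were raised in the class of that name. Among the type I markers, however, Pdpn was at 0 and Ager, a defining gene, was found in 1 of 238 and 1 of 20 cells of the 2 clusters named type I-like in air pnd7. The T and B cell genes Trac, Trbc2, Ighm and Ighd were also at 0, and 2346 features of the tables carry the name of a further copy of a gene.

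Positions are from RefSeq's annotation of GRCm38.p6, the assembly also called mm10. The ligand genes were at chr3:107741048-107760469 (Csf1), chr8:110741829-110805949 (Il34), chr11:54247270-54249899 (Csf2) and chr11:98700183-98703631 (Csf3). The receptor genes were at chr19:61217191-61228461 (Csf2ra), chr15:78325800-78351001 (Csf2rb) and chr4:126023441-126044975 (Csf3r), and no position is printed for Csf1r. Csf2rb2, a near-identical mouse copy of Csf2rb that serves the interleukin 3 receptor, lies beside it at chr15:78282507-78305721. How the counting divided reads between these copies was not tested, so Csf2rb2 is given beside Csf2rb where a result turns on it. A promoter sequence was found for 4 of the 8 genes. The letters GAGGAA, the core bound by the myeloid factor PU.1 and by other ETS factors, were searched on either strand in the 250 bases before the start used by RefSeq's promoter table. For Csf1 and Csf2 that start is the end of the gene span given above, but for Csf2ra it lies 43 bases inside the span, at 61228418, and for Csf3r 1218 bases inside it, at 126024659. They occurred in 7639 of 32851 promoters (23.3%). Of the 4 genes, the receptor chains Csf2ra and Csf3r held them, and the ligands Csf1 and Csf2 did not. The 30 bases around these matches are printed because both genes were counted mostly in myeloid cells, with the matched letters in capitals:
Csf2ra, chr19:61228419-61228448, minus strand, match from 14 bases before the table's start: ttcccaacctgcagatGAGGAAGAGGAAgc
Csf3r, chr4:126024561-126024590, plus strand, match from 86 bases before the table's start: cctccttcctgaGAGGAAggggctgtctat
Both printed windows thus lie within the gene spans. The Csf2ra window held 2 copies in a row without overlap, and the Csf3r window 1. A match is a run of letters and not a site shown to be bound.

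Over whole libraries, no ligand passed 2-fold between unsorted libraries of 1 age or exposure, and each receptor chain was higher at pnd60 than at pnd7 in the sums of the unsorted libraries. Csf1 was at 18.4 CPM in air pnd7, 18.4 in hyperoxia pnd7, 3.68 in the sorted library, 21.1 in air pnd60 and 20.4 in hyperoxia pnd60. Il34 was at 4.5, 7.00, 0, 6.78 and 7.68 CPM in the same order. No Il34 molecule was found in the sorted cells, where the floor of 3 counts is 0.381 CPM and the interval reaches 0.468 CPM. Csf2 was at 8.47, 10.5, 1.40, 5.09 and 7.20 CPM. The 3 ligands thus shared their lowest library, the sorted one. Csf3 was hardly detected, with 17 counts in 16 of 13200 cells: 2 in air pnd7, 1 in hyperoxia pnd7, 5 in the sorted library, 3 in air pnd60 and 6 in hyperoxia pnd60. It was not compared further.

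Csf1r was at 66.5 CPM in air pnd7, 62.3 in hyperoxia pnd7, 131 in the sorted library, 128 in air pnd60 and 141 in hyperoxia pnd60. Csf2ra was at 66.6, 61.8, 228, 142 and 143 CPM in that order. Csf2rb was at 49.8, 42.3, 404, 74.0 and 70.0 CPM. The sorted library was thus the highest for both chains of the GM-CSF receptor, and for Csf2rb by the widest margin. Csf3r was at 13.3, 9.06, 3.17, 24.8 and 36.6 CPM, and here the sorted library was the lowest.

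**Figure D1:**
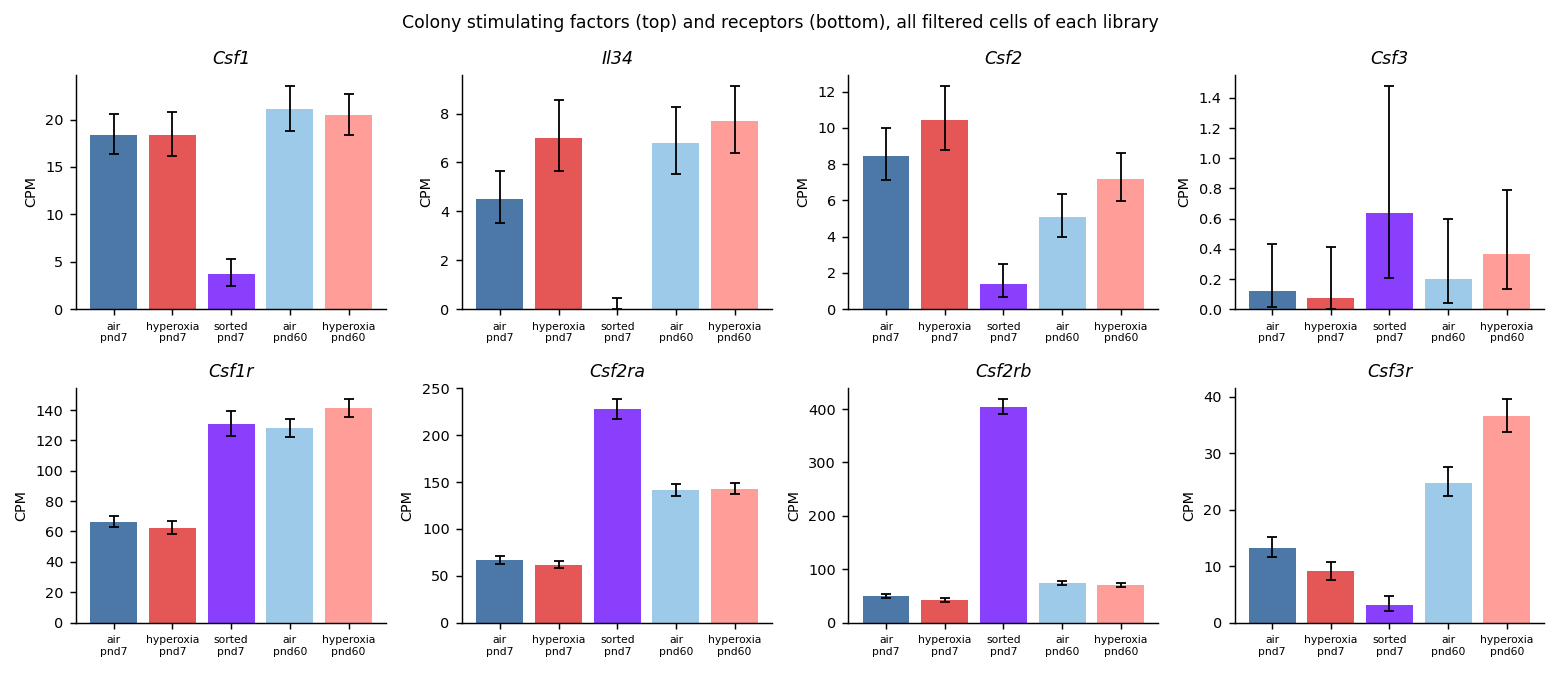
CPM (vertical axis) of the 4 ligands (top row) and 4 receptor chains (bottom row) in the 5 libraries, over all filtered cells; error bars are exact 95% Poisson intervals for counting error, and panels have their own scales. Csf2rb stands at 404 CPM in the sorted library against 42.3 to 74.0 in the others, while Il34 is at 0 there.

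Hyperoxia and air were compared at each age to ask what the early exposure leaves behind. At pnd7, 0 of the 7 genes with enough counts passed the fold, where 2.71% of the 15660 genes tested did. Il34 was higher in hyperoxia by 0.64 on the log2 scale, with an interval of 0.18 to 1.09, and Csf2 was at 0.30, from -0.04 to 0.65. The receptor chains Csf2rb and Csf3r were lower beyond counting error, Csf2rb at -0.23 (-0.39 to -0.08) and Csf3r at -0.55 (-0.88 to -0.23). Csf1 at 0.00, Csf1r at -0.09 and Csf2ra at -0.11 had intervals that held 0. As a mean over cells, which gives each cell the same weight whatever its depth, Csf1r was at 0.24 and Csf2ra at 0.2. No interval is given for such means, because the exact intervals belong to summed counts. Erythroid-like cells made up 20.9% of the cells of air pnd7 and 5.62% of those of hyperoxia pnd7. Their part in these means was not tested. The median of the 7 genes was -0.09, against -0.03 for all genes tested.

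At pnd60, after recovery in air, 0 of the 7 genes passed the fold again, where 1.58% of 15917 genes did. Csf3r was higher in the hyperoxia library by 0.56 (0.37 to 0.75), the opposite direction to pnd7. With a looser filter, of at least 500 genes and up to 10% mitochondrial counts, it was at 0.15 (0.01 to 0.30). Csf2 was higher by 0.50 (0.07 to 0.94) and Csf1r by 0.14 (0.06 to 0.23). Csf1 at -0.05, Il34 at 0.18, Csf2ra at 0.01 and Csf2rb at -0.08 had intervals that held 0. The median was 0.14, against 0.01 for all genes tested.

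The libraries of different age were compared next. In air, 1 of 7 genes passed the fold upwards from pnd7 to pnd60, Csf2ra at 1.09 (0.98 to 1.19), where 16.9% of 16021 genes did. Csf1r at 0.95 (0.84 to 1.05) lay just inside it, and Csf3r at 0.90 (0.66 to 1.15) and Csf2rb at 0.57 (0.44 to 0.70) were also higher. Among the ligands, Il34 was higher by 0.59 (0.14 to 1.04), Csf2 was lower at -0.74 (-1.16 to -0.32), and Csf1 was at 0.20. The median was 0.59, against 0.22 for all genes tested. The filter and the weighting of cells moved several of these values. With the looser filter Csf3r was at 1.88, and over all deposited barcodes Csf2 was at -0.05 (-0.47 to 0.36). As a mean over cells Csf2rb was at -0.22.

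After hyperoxia, 3 of 7 genes passed the fold upwards with age, where 21.2% of 15962 genes did. They were Csf3r at 2.01 (1.73 to 2.31), Csf2ra at 1.21 (1.09 to 1.32) and Csf1r at 1.18 (1.07 to 1.30). Csf2rb was at 0.73 (0.58 to 0.87), and Csf2 was lower at -0.54 (-0.90 to -0.18). Csf1 at 0.15 and Il34 at 0.13 had intervals that held 0. The median was 0.73, against 0.29 for all genes. As a mean over cells Csf3r was at 1.36, Csf2ra at 0.58, Csf1r at 0.55 and Csf2rb at 0.08. Over all barcodes Csf2 was at 0.06 (-0.29 to 0.41). Scaling by size factors moved all genes by -0.18 in air and -0.20 after hyperoxia, which put Csf2ra at 0.91 and 1.01 and Csf1r at 0.77 and 0.98. These comparisons share libraries with those of hyperoxia against air, so they are not separate observations.

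The sorted library differed most. Per the study's methods, the unsorted libraries came from an earlier published dataset of the authors, and the sorted cells were sequenced for this study. Flow sorting, experiment and depth, at medians of 15529 against 7120 counts per cell in hyperoxia pnd7, thus differ together. Their parts in the ratios below cannot be told apart. Against unsorted hyperoxia pnd7, all 7 genes tested passed the fold. Csf1r, Csf2ra and Csf2rb were higher, where 8.07% of 14538 genes were higher, and Csf1, Il34, Csf2 and Csf3r were lower, where 42.8% were lower. Csf2rb, at 3188 counts against 575, was 9.55-fold higher, a log2 ratio of 3.26 (3.13 to 3.39). Csf2ra was at 1.88 (1.76 to 2.00) and Csf1r at 1.07 (0.94 to 1.20). Csf1 was lower at -2.32 (-2.93 to -1.77), Csf2 at -2.91 (-3.94 to -2.02) and Csf3r at -1.51 (-2.20 to -0.88). Il34 was 18.4-fold lower with the sorted library set to the floor of 3 counts, and at least 14.7-fold lower by its interval. Over all deposited barcodes Csf3r was at -0.33 (-0.96 to 0.25). The median was -1.51, against -0.74 for all genes.

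Against air pnd7, 6 of the 7 genes passed: Csf2ra and Csf2rb upwards, where 7.69% of 14975 genes did, and Csf1, Il34, Csf2 and Csf3r downwards, where 44.1% did. Csf1r was at 0.98 (0.85 to 1.10), just under the fold. This comparison uses the same sorted library as the one before. The sort changed the mix of cells as well: myeloid classes made up 94.5% of the sorted cells, against 10.5% in air pnd7 and 14.2% in hyperoxia pnd7, and alveolar macrophage-like cells alone 83.6%.

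**Figure D2:**
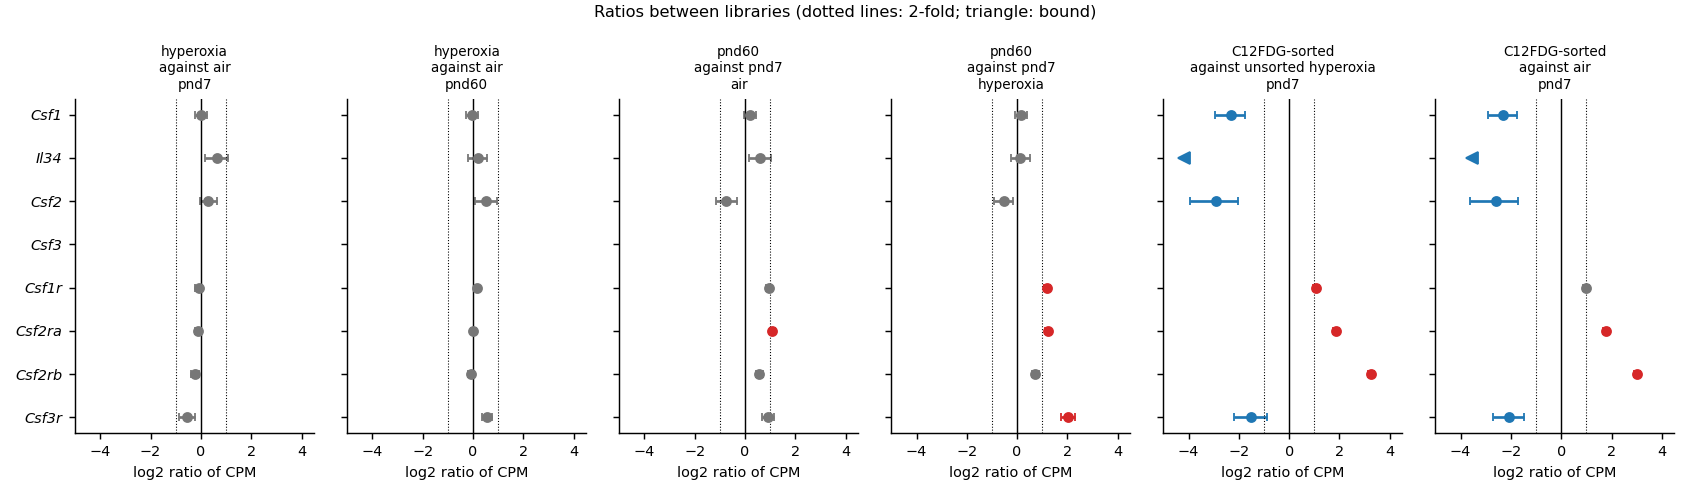
Log2 ratio of CPM (horizontal axis) for each gene (rows) in the 6 comparisons of libraries, with exact 95% intervals; dotted lines mark 2-fold, red and blue points are past the fold upwards and downwards, grey points are not, and triangles are bounds. No gene is coloured in the panels of hyperoxia against air, whereas in the panel of sorted against unsorted hyperoxia 3 are red and 4 are blue.

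Each ligand was counted mostly in its own cell classes. Csf2 and Il34 both came chiefly from alveolar type II-like cells, the surfactant-making epithelium, while Csf1 was spread over many classes. Of all Csf2 counts, type II-like cells held 64.5% in air pnd7, 64.1% in hyperoxia pnd7, 72.7% in the sorted library, 81.3% in air pnd60 and 82.4% in hyperoxia pnd60. Within these cells Csf2 was at 34.7, 37.1, 49.97, 23.5 and 33.2 CPM, where the sorted value rests on 8 counts in 8 cells, 6 of them in 1 cell. From hyperoxia against air, Csf2 within the class was at 0.10 (-0.34 to 0.53) at pnd7 and 0.50 (0.02 to 0.99) at pnd60. With age it was lower in air, at -0.56 (-1.06 to -0.08), and at -0.16 (-0.59 to 0.27) after hyperoxia. Csf2 was thus lower with age in air over the filtered cells and in this class, but not beyond counting error over all deposited barcodes. The class came mostly from different clusters at the 2 ages. Cluster 7 held 175 and 145 cells of the unsorted pnd7 libraries, and 6 and 5 at pnd60. Cluster 46 held 0 cells at pnd7, and 397 and 473 at pnd60. The median cell of the class had 14575 counts in air pnd7 against 6433 in air pnd60. The part of clusters and depth in its age ratios was not tested.

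Beside type II-like cells, Csf2 was found at low counts in several other classes. Type I-like cells of air pnd7 held 19 counts in 13 cells, 13.5% of the Csf2 counts there, at 14.5 CPM. Those of hyperoxia pnd7 held 5, a ratio of -1.70 (-3.48 to -0.23). This ratio compares mostly different clusters: 238 of the 258 air cells were cluster 10, and 56 of the 68 hyperoxia cells cluster 19. The medians were 2160 and 10457 counts per cell. The part of clusters, depth and RNA of other cells was not tested. Pericyte-like cells held 6 counts in each unsorted pnd7 library, and club-like cells, the secretory cells of the airways, held 7 in hyperoxia pnd7. ILC2-like cells, the innate lymphocytes that secrete type 2 cytokines, held 27 counts in 5 cells of hyperoxia pnd7, of which 1 cell held 15. They held 5 counts in 2 cells of air pnd7, all in 1 cell, 1 count in 17 cells of air pnd60 and 7 counts in 21 cells of hyperoxia pnd60. An unnamed cluster of 74 cells led by Cd163l1, Trdc_1 and Il7r held 9 counts, or 38.3 CPM. B cell-like cells held no Csf2 count in any library.

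Il34 followed a similar division. Type II-like cells held 54.7% of its counts in air pnd7, 67.4% in hyperoxia pnd7, 63.0% in air pnd60 and 71.7% in hyperoxia pnd60. Its level in them was 15.6, 26.1, 24.2 and 30.8 CPM. Hyperoxia against air within these cells gave 0.74 (0.15 to 1.34) at pnd7 and 0.35 (-0.13 to 0.83) at pnd60, and pnd60 against pnd7 in air gave 0.63 (0.04 to 1.24). The age ratio again compares different clusters and depths, whose part was not tested. The share of type II-like cells with an Il34 molecule was 21.1% in air pnd7 and 33.1% in hyperoxia pnd7, at a median of 14575 and 17353 counts per cell. Thinned to 1000 counts per cell, these shares were 1.14% and 2.76%, each near the level of 1 molecule, so no change is read from them. Pericyte-like cells, the cells wrapped around capillaries, also held Il34, at 3.02, 13.3, 23.6 and 36.4 CPM from 2, 12, 4 and 8 counts in the unsorted libraries. In hyperoxia pnd7, 42 of these 92 cells were cluster 44, which no other library shared and which Marco, Apoc1 and Npy2r led. It had 1 pericyte marker among its 10 leading genes, though 72.7% of the pericyte markers were raised. The part of cluster 44 in the Il34 counts was not tested. Which of these classes led depended on the clustering. The sorted library held 8 type II-like cells, so its lack of Il34 rests on few cells of the main source.

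Csf1 had no dominant source. Its highest levels were in the basophil or mast cell-like class, at 496 CPM in air pnd7, 649 in hyperoxia pnd7, 1859 in air pnd60 and 1466 in hyperoxia pnd60, from 11, 7, 11 and 11 cells. These few cells held 17.3%, 14.4%, 17.04% and 10.9% of all Csf1 counts. Mesothelial-like cells, the lining of the lung surface, were at 370, 142, 755 and 227 CPM from 12, 6, 3 and 3 cells. Among the classes of 20 cells or more, neutrophil-like cells had the highest mean, at 182 CPM in air pnd60 and 83.6 in hyperoxia pnd60 from 12 and 9 counts. With fewer than 20 cells at pnd7, they held 15 counts in air and 2 after hyperoxia. Next, adventitial fibroblast-like cells reached 102 CPM in air pnd60 and 158 in hyperoxia pnd60, with overlapping intervals, and alveolar fibroblast-like cells were at 20.1, 20.4, 29.4 and 36.9 CPM in the unsorted libraries.

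General capillary endothelium-like cells held the most Csf1 counts of the named classes at pnd60, with 24.8% of them in air and 24.9% after hyperoxia. Their Csf1 was at 17 CPM in air pnd7, 28.5 in hyperoxia pnd7, 74.1 in air pnd60 and 68.2 in hyperoxia pnd60. Age gave 2.12 (1.41 to 2.89) in air and 1.26 (0.70 to 1.83) after hyperoxia. The pnd60 cells of this class came almost entirely from cluster 37, which held 557 of 558 and 570 of 571 of them and 1 cell of each unsorted pnd7 library, and the median cell had 5518 counts in air pnd7 against 1602 in air pnd60. The part of this difference in clusters and depth was not tested. Alveolar macrophage-like cells held little Csf1, at 1.38 to 4.34 CPM over the 5 libraries.

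**Figure D3:**
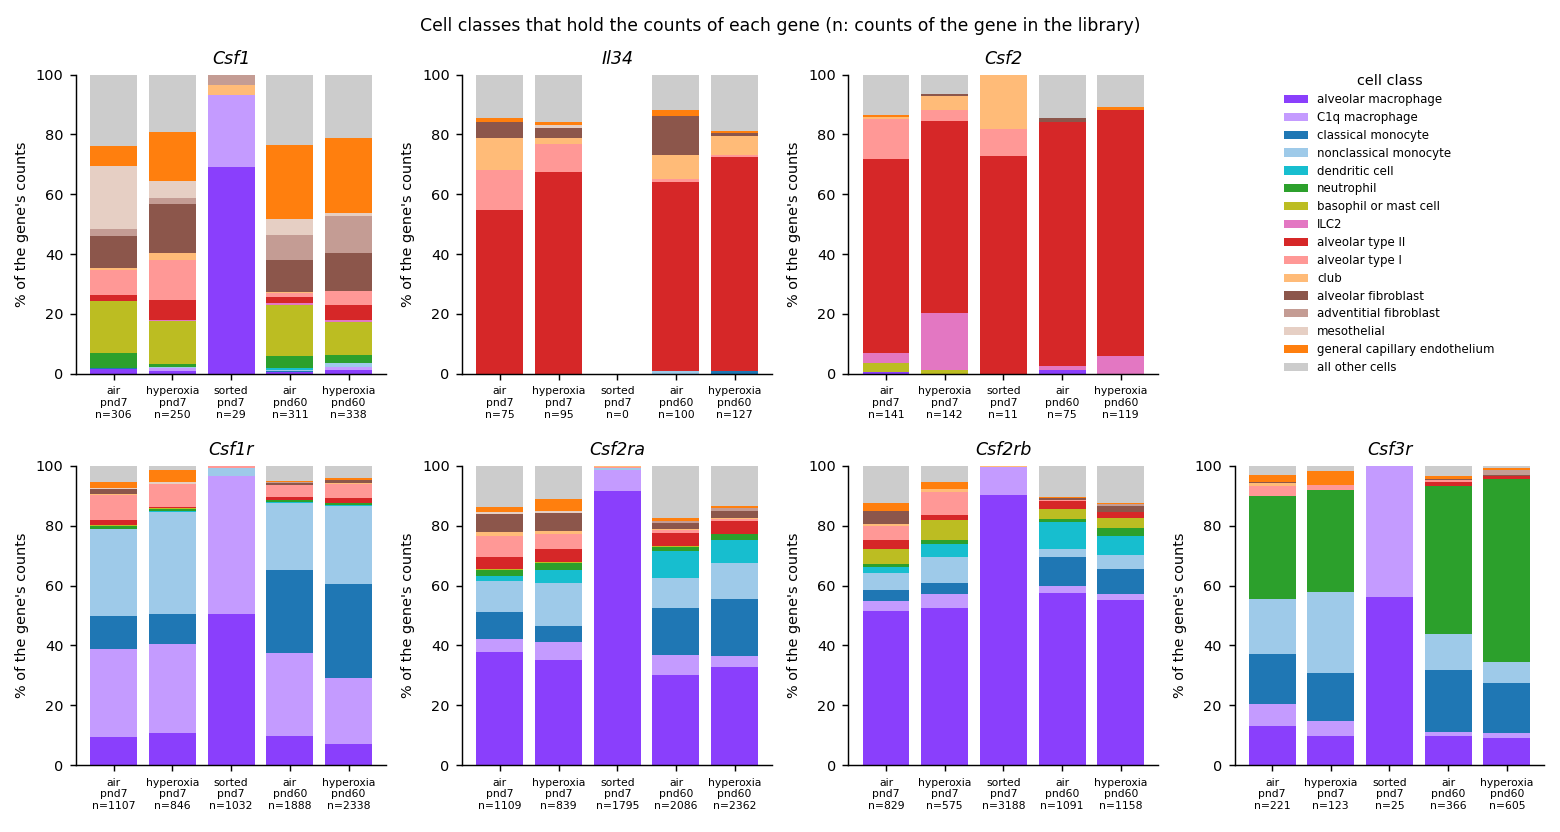
Share of each gene's counts (vertical axis, %) held by each cell class in each library, with the number of counts under each bar; Csf3 is not drawn. Type II-like cells (red) make up 54.7% to 82.4% of the Il34 and Csf2 bars of the unsorted libraries, Csf1 is divided among many classes, and macrophage, monocyte and neutrophil classes fill most of the receptor bars.

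The receivers were mostly myeloid. The myeloid classes, 10.5% to 15.4% of the cells of the unsorted libraries, held 80.1% to 88.8% of the Csf1r counts, 65.4% to 77.4% of those of Csf2ra, 72.3% to 86.7% of those of Csf2rb and 90.0% to 95.5% of those of Csf3r. In the sorted library they held 99.1%, 99.1%, 99.7% and 100% of the 4. As a partial measure of free RNA, T cell-like cells had a Csf1r molecule in 0.552% to 1.45% of cells and a Csf2rb molecule in 0.184% to 1.45%, at medians of 2330 to 6683 counts per cell. Other non-myeloid classes held more. Mean Csf1r was 14.25 CPM in erythroid-like and 14.29 in general capillary endothelium-like cells, against 4.435 in T cell-like cells. Mean Csf2ra was 34.9 CPM in B cell-like and 36.7 in alveolar fibroblast-like cells. Whether these counts are free RNA was not tested.

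Csf1r was highest in C1q macrophage-like cells, the tissue macrophages that express complement C1q, and in nonclassical monocyte-like cells, the patrolling monocytes. In C1q macrophage-like cells it was at 1207 CPM in air pnd7, 1057 in hyperoxia pnd7, 630 in the sorted library, 2038 in air pnd60 and 2162 in hyperoxia pnd60. Nonclassical monocyte-like cells were at 1196, 1175, 1004 (from 5 sorted cells), 1318 and 1408 CPM. In the unsorted pnd7 libraries the intervals of these classes overlapped, and at pnd60 those of C1q macrophage-like cells lay above. Classical monocyte-like cells, the monocytes recruited to tissue, were at 591, 565, 953 and 1005 CPM in the unsorted libraries, below both. Alveolar macrophage-like cells were far lower, at 88.6, 100, 79.2, 128 and 106 CPM.

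With age, Csf1r was higher in some myeloid classes. In air it was at 0.76 (0.55 to 0.96) in C1q macrophage-like, 0.69 (0.40 to 0.99) in classical monocyte-like and 0.53 (0.18 to 0.90) in alveolar macrophage-like cells, while nonclassical monocyte-like cells were at 0.14 (-0.07 to 0.35). After hyperoxia it was at 0.26 (0.06 to 0.47) in nonclassical monocyte-like and at 0.07 (-0.31 to 0.46) in alveolar macrophage-like cells. C1q macrophage-like and classical monocyte-like cells numbered 19 each in hyperoxia pnd7, so no ratio was taken there. Their Csf1r levels given above were nonetheless higher at pnd60, in C1q macrophage-like cells at 2162 against 1057 CPM. Between hyperoxia and air, no myeloid class of 20 cells or more differed in Csf1r beyond counting error at either age. At pnd7 this covers only alveolar macrophage-like and nonclassical monocyte-like cells.

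Csf1r was also counted outside the myeloid classes, in the alveolar type I-like class, the thin gas-exchange epithelium. It was at 69.4 CPM in air pnd7, 57.0 in hyperoxia pnd7, 276 in air pnd60 and 345 in hyperoxia pnd60. Of these cells 19.8%, 36.8%, 65.3% and 73.2% had a Csf1r molecule, and after thinning to 1000 counts 7.36%, 5.88%, 28.6% and 28.6% did. The classes differed in makeup: cluster 10 was mostly air pnd7, with 238 cells, and cluster 19 held 20, 56, 41 and 54 cells of the unsorted libraries. Within cluster 19, Csf1r was at 132, 63.4, 285 and 366 CPM. Age gave 1.11 (0.50 to 1.75) in air and 2.53 (2.02 to 3.06) after hyperoxia in that cluster. Hyperoxia against air there gave -1.06 (-1.73 to -0.37) at pnd7, past the fold, from 45 counts in 56 cells against 34 in 20, and 0.36 (-0.08 to 0.81) at pnd60. Over the whole class the pnd7 value was -0.28 (-0.77 to 0.19). Hopx, a type I gene, was found in 95.0% to 100% of the cells of cluster 19. The myeloid gene Tyrobp was found in 30% and 10.7% of them at pnd7 and in 7.32% and 7.41% at pnd60, at medians of 11062, 6827, 5512 and 4293 counts per cell. In the 238 air pnd7 cells of cluster 10, Tyrobp was found in 46.6%, Lyz2 in 76.5% and Spi1 in 20.6%. The median cell of cluster 10 had 2135 counts. Most type I-like cells of air pnd7 thus came from a shallow cluster with frequent Tyrobp. Since Ager and Pdpn were near or at 0, the class is called by its rule, and the part of myeloid RNA in its Csf1r was not tested.

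**Figure D4:**
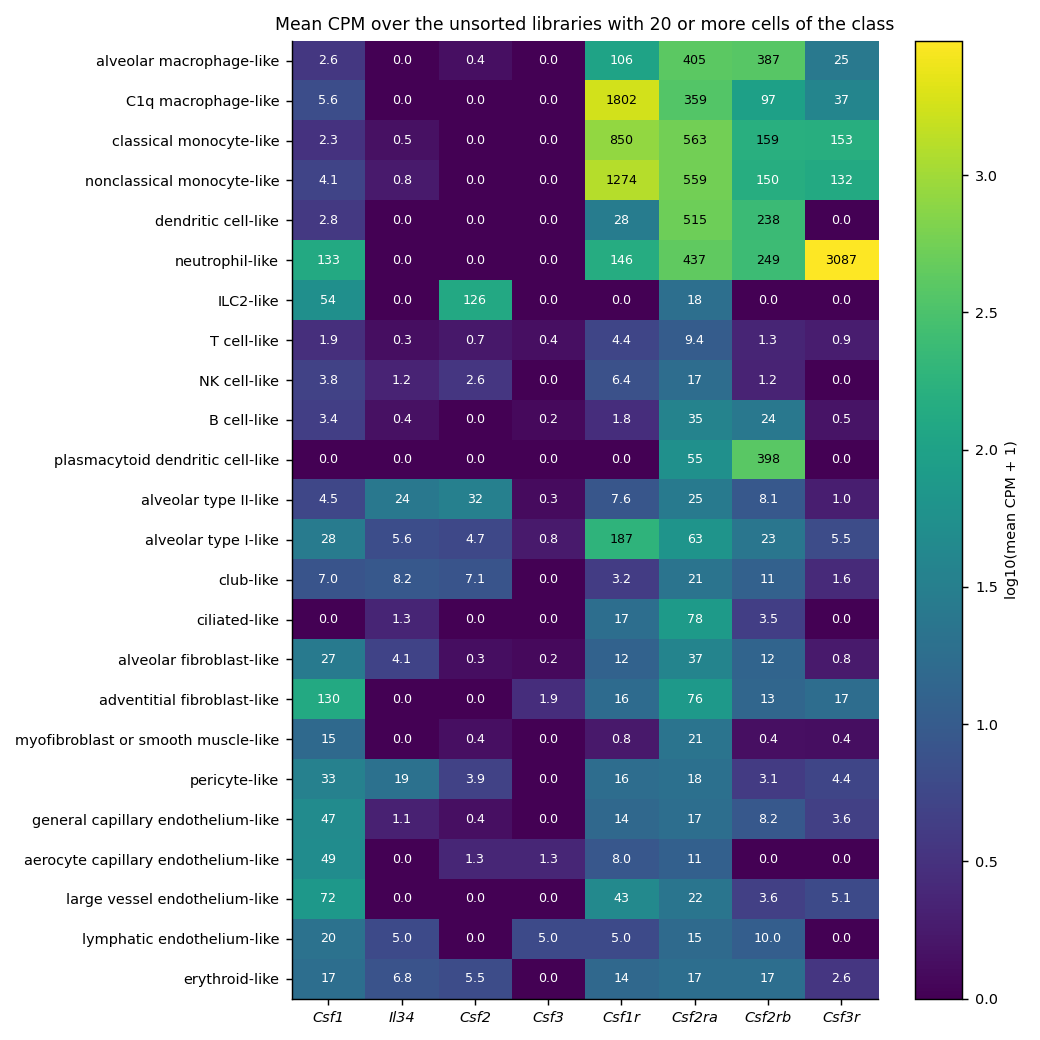
Mean CPM of each gene (columns) in each cell class (rows) over the unsorted libraries with 20 or more cells of the class; colour is log10(mean CPM + 1) and the printed number is the mean CPM. Csf2rb is at 387 in alveolar macrophage-like cells, Csf1r at 1802 in C1q macrophage-like cells and Csf3r at 3087 in neutrophil-like cells.

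The chains of the GM-CSF receptor met in alveolar macrophage-like cells. Csf2ra was at 365 CPM in air pnd7, 329 in hyperoxia pnd7, 250 in the sorted library, 432 in air pnd60 and 494 in hyperoxia pnd60 in these cells. Csf2rb was at 372, 336, 437, 434 and 406 CPM. Both chains were detected in 75.5%, 77.8%, 85.7%, 85.7% and 90.1% of the cells of the class. In type II-like cells, the main source of the ligand, both were detected in 1.38% to 2.86% of cells of the unsorted libraries. Other myeloid classes also held counts of both chains, and their share of cells with both is not given here. The class held 51.6% to 57.7% of all Csf2rb counts in the unsorted libraries and 90.3% in the sorted library.

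Csf2ra was not particular to these cells. Classical monocyte-like cells were at 603 CPM in air pnd60 and 610 in hyperoxia pnd60, nonclassical monocyte-like cells at 657 and 667, and dendritic cell-like cells at 529 and 502. The intervals of these 3 classes overlapped, except those of nonclassical monocyte-like and dendritic cell-like cells in hyperoxia pnd60. Csf2rb levels lay further apart between classes. Plasmacytoid dendritic cell-like cells, the interferon-producing dendritic cells, had the highest mean among classes of 20 cells or more, at 398 CPM from 29 counts in 22 cells of hyperoxia pnd60, beside 387 in alveolar macrophage-like cells. In 16 cells of air pnd60 they were at 195 CPM. Their Csf2rb2 was at 343 and 270.2 CPM in hyperoxia pnd60 and air pnd60. Neutrophil-like cells had Csf2rb at 182 CPM in air pnd60 and 316 in hyperoxia pnd60. Dendritic cell-like cells were at 270 and 206 CPM at pnd60, classical monocyte-like cells at 190 and 134, and basophil or mast cell-like cells at 1263 and 1426 from 11 cells each. The basophil lineage is known to respond to interleukin 3, whose receptor uses the same chain. C1q macrophage-like cells had Csf2ra at 180, 209, 162, 545 and 353 CPM over the 5 libraries, and at pnd60 it was lower in hyperoxia than in air, at -0.63 (-1.04 to -0.23). In type II-like cells Csf2ra was at 17.1, 14.7, 35.8 and 33.2 CPM in the unsorted libraries. Means of similar size were found in B cell-like cells, at 34.9 CPM, and alveolar fibroblast-like cells, at 36.7 CPM. In type II-like cells it was higher with age, at 1.06 (0.53 to 1.61) in air and 1.18 (0.61 to 1.77) after hyperoxia. These ratios again compare different clusters and depths, and their part and that of free RNA were not tested.

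Within the alveolar macrophage-like class, hyperoxia and air differed little. At pnd7, with 63 and 106 cells, 0 of 4 genes tested passed the fold, where 2.59% of 8158 genes did. Csf1r was at 0.18, Csf2ra and Csf2rb at -0.15 each, and Csf3r at -0.91 (-2.02 to 0.10). At pnd60, with 191 and 182 cells, 0 of 4 passed, where 2.63% of 9203 genes did, and only Csf2ra had an interval that left out 0, at 0.19 (0.04 to 0.35).

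The sort was also compared within this class, 412 sorted cells against 63 of unsorted hyperoxia pnd7. The difference in experiment and depth also holds for these ratios and for those of the listed genes below. Of 5 genes tested 1 passed the fold, downwards, where 18.5% of 9807 genes did. It was Csf3r, at -2.66 (-3.88 to -1.41), from 14 counts against 12. Csf2rb, 9.55-fold higher over the whole libraries, was at 0.38 (0.21 to 0.55) within the class, and Csf2ra, higher over the whole libraries, was lower at -0.40 (-0.58 to -0.21). Csf1r was at -0.34 (-0.67 to 0.00). The copy Csf2rb2 was at 115 CPM against 46.9, a ratio of 1.29 (0.84 to 1.78), so it differed more than Csf2rb itself. Csf1 was at 0.44 (-1.60 to 3.58), from 20 counts against 2.

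The class came from different clusters in these libraries. Of the 374 cells of cluster 42, 370 were sorted cells, and it was led by Slc7a11, Hmox1, Mt1, Mt2, Mmp12 and Gdf15, genes of the response to oxidants and metals and of tissue remodelling and stress. It had none of the alveolar macrophage markers among its 10 leading genes, though 9 of the 12 were raised. Cluster 17 held 39 of the 63 unsorted cells and no sorted cell. Summed over the 12 markers, the class was at 4731 CPM in the sorted library, 7263 in hyperoxia pnd7 and 6298 in air pnd7. Cluster 18 was shared, with 42 sorted cells and 22 of hyperoxia pnd7. It was led by Pclaf, Top2a and Mki67, genes of dividing cells, so it stands for only a part of the class. None of the alveolar macrophage markers was among its 10 leading genes, though all 12 were raised. There Csf2rb was at 232 against 235 CPM, Csf2ra at 188 against 266 and Csf2rb2 at 46.3 against 34.7, each with overlapping intervals. Cluster 42 itself had Csf2rb at 477 and Csf2rb2 at 128 CPM in the sorted library.

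C1q macrophage-like cells of the sorted library, 49 in number, differed in Csf2rb and Csf1r. Csf2rb was at 388 CPM, against 99.1 in the 23 cells of air pnd7, a ratio of 1.97 (1.40 to 2.60), while Csf1r was lower at -0.94 (-1.14 to -0.73). The 19 cells of hyperoxia pnd7 had Csf2rb at 113 CPM. Type II markers were summed at 8440 CPM in the sorted C1q macrophage-like cells, at 8200 in those of air pnd7 and at 292 in those of hyperoxia pnd7. Alveolar macrophage markers were summed at 1075, 1548 and 1876 CPM in the same order, but 10, 6 and 3 of the 12 were above 0. In hyperoxia pnd7 those 3 were Ctsk, Abcg1 and Mrc1, and Chil3 and Marco were among those at 0. The sums thus do not follow how many of the markers were found. The part of either marker list in the result was not tested.

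**Figure D5:**
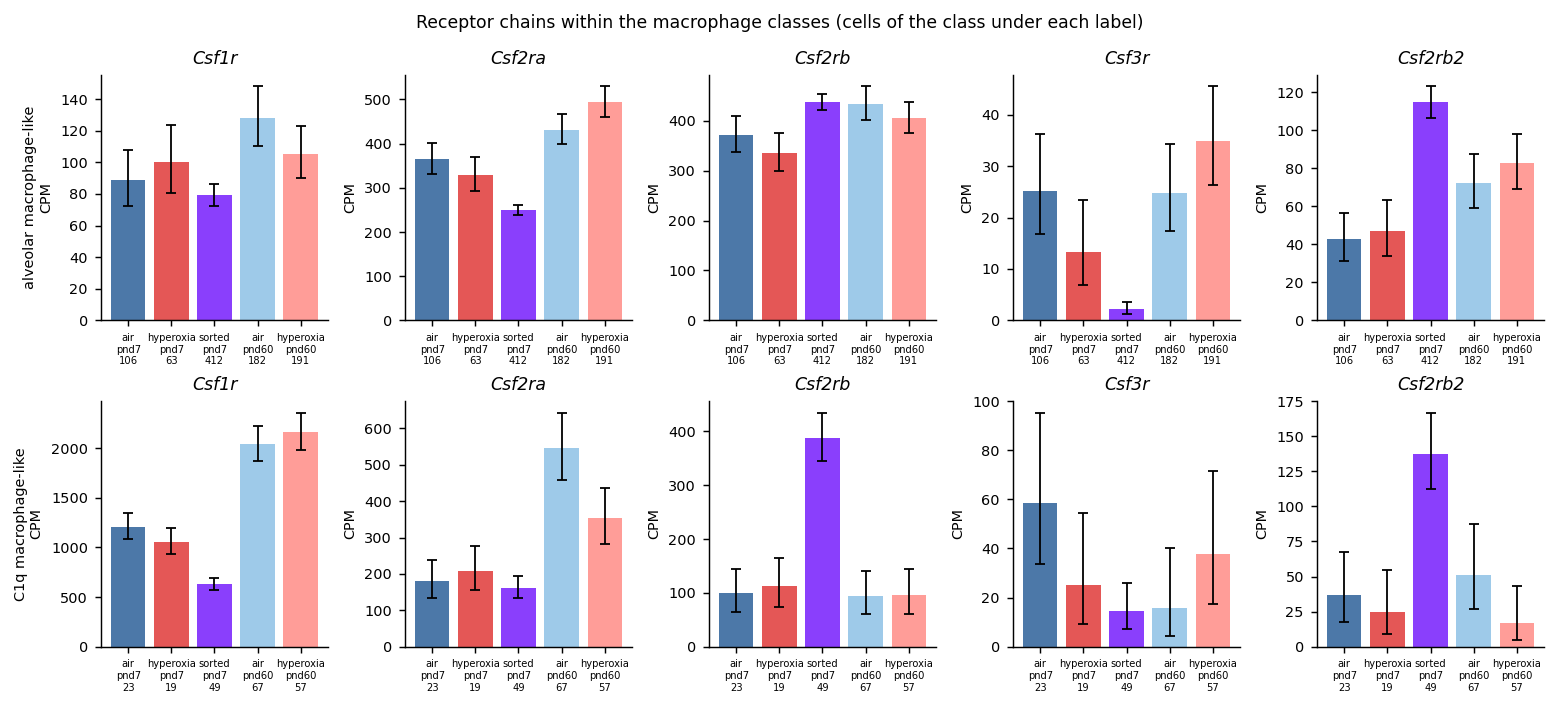
CPM (vertical axis, own scale per panel) of the receptor chains and Csf2rb2 in alveolar macrophage-like (top) and C1q macrophage-like cells (bottom) of the 5 libraries, with exact 95% Poisson intervals and the number of cells under each bar. In C1q macrophage-like cells the sorted bar of Csf2rb reaches 388 CPM against 94.1 to 113 in the others, while that of Csf1r is the lowest at 630.

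Csf3r was chiefly a neutrophil-like gene. It was at 1150 CPM in air pnd7, 644 in hyperoxia pnd7, 2745 in air pnd60 and 3429 in hyperoxia pnd60, from 16, 14, 31 and 59 cells, and the sorted library held no such cell. These cells held 34.4%, 34.1%, 49.5% and 61.0% of all Csf3r counts. At pnd60 hyperoxia against air gave 0.32 (0.06 to 0.59) within the class, and the class made up 1.24% of cells against 0.705%. Among the filtered cells, the higher Csf3r of the hyperoxia pnd60 library went with more neutrophil-like cells and with a higher level in them. The library ratio was smaller with the looser filter, as given above. The share of neutrophil-like cells under that filter is not given here. At pnd7 neither library held 20 neutrophil-like cells, so no ratio was taken. Monocyte-like cells came next, with classical ones at 182, 133, 139 and 138 CPM and nonclassical ones at 152, 135, 137 and 102 CPM, where the intervals overlapped within each library.

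Other genes of the pathway were followed as a list of 50: receptor chains and ligands that share Csf2rb, second receptors of Il34, Jak-Stat signalling, further signalling proteins, myeloid transcription factors and inducers of colony stimulating factors. Between hyperoxia and air, 0 of the 46 tested passed the fold at pnd7 and 0 of 46 at pnd60, with medians of -0.12 and 0.04. The medians over all genes were -0.03 and 0.01. With age in air, 16 of 47 were higher, where 16.9% of all genes were, and 2 lower, where 11.2% were. The median was 0.71, against 0.22 for all genes. The highest were the interleukin 5 receptor chain Il5ra at 2.2 (1.34 to 3.16), the transcription factor Irf8 at 1.90 (1.80 to 2.00) and the kinase Syk at 1.88 (1.78 to 1.98). The lowest were Cebpe, a factor of granulocyte maturation, at -2.99 (-5.36 to -1.29) from 3 against 27 counts and the Il34 receptor Ptprz1 at -1.21 (-1.76 to -0.69). After hyperoxia 20 of 47 were higher with age, where 21.2% of all genes were, and 1 lower, where 11.0% were. The median was 0.87, against 0.29 for all genes. The list was led by Il5ra at 2.32, Syk at 2.18 and Irf8 at 2.08, and Cebpe was at -3.37. The mix of cells also differed with age. B cell-like cells made up 5.42% of cells in air pnd7 and 28.7% in air pnd60. After hyperoxia they made up 6.1% at pnd7 and 27.0% at pnd60. The part of this mix in the age ratios of the list was not tested.

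In the sorted library against unsorted hyperoxia, 17 of 45 listed genes were higher, where 8.07% of all genes were, and 11 lower, where 42.8% were. The median was 0.27, against -0.74 for all genes. The cytokine Il1a was at 4.73 (4.36 to 5.14), the macrophage factor Bhlhe41 at 4.60 (4.44 to 4.77) and Csf2rb2 at 3.87 (3.57 to 4.18). The epithelial cytokines Tslp at -4.67 (-6.97 to -3.10, 3 counts) and Il33 at -4.30 (-4.89 to -3.77) were lower. Ptprz1 had no count, a ratio of -3.78 at the floor and at most -3.44 by its interval. Against air, 15 of 45 were higher, where 7.69% of all genes were, and 11 lower, where 44.1% were. Il1a was at 5.15, Bhlhe41 at 4.10, Csf2rb2 at 3.57, Tslp at -4.44 and Il33 at -3.96. Ptprz1 was at -4.12 at the floor and at most -3.79 by its interval.

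Within alveolar macrophage-like cells, sorted against unsorted hyperoxia, 5 of 37 listed genes were higher, where 3.48% of all 9807 genes were, and 9 were lower, where 18.5% were, with a median of -0.29 against -0.36 for all genes. Among them, Bhlhe41 was at 1.72 (1.5 to 1.94) and Csf2rb2 at 1.29. Cish, an inhibitor that GM-CSF signalling through Stat5 is known to induce, was lowest at -4.84 (-6.08 to -3.75), with 9 counts in 412 sorted cells against 35 in 63 unsorted cells. Runx1 at -2.63 (-2.80 to -2.45) and Klf4 at -2.49 (-2.65 to -2.33), both transcription factors, followed. The Jak-Stat genes among those lower were Stat5a, Stat5b, Cish and Socs2, 4 of the 9 tested, beside the same 18.5% of all genes. Hyperoxia against air within the class gave 1 of 34 listed genes at pnd7, where 2.59% of all genes passed, Il1b at -1.30 (-1.93 to -0.70).

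Genes with the most similar pattern were taken by Pearson's r of log2(CPM + 10) over 52 sums, each of at least 50 cells of 1 class in 1 library, from 20 classes and 13080 genes. The sums of a library share its depth, so r is a description. Csf2 was most like Cpn1 (r = 0.962), the chemokine Cxcl15 (0.946) and Klk13 (0.944), and Il34 was most like Cybrd1 (0.921), Igsf9b (0.890) and Arhgef19 (0.888). Csf1 had the lowest values, with Glis2 at 0.860, Tns2 at 0.852 and Mcc at 0.843. Csf1r was most like Cd300a (0.923), Clec4a3 (0.915) and Tlr13 (0.903), and Csf2ra was most like Nfam1 (0.943), Mpeg1 (0.943) and Cd300c2 (0.928). Csf2rb was most like Amz1 (0.928), Arl11 (0.926) and the inflammasome sensor Nlrp3 (0.923), and Csf3r was most like Sirpb1b (0.953), 1600010M07Rik (0.934) and Cd300lb (0.933).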

How the data were processed

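For 5 libraries the authors deposited raw molecule counts, 1 value for each gene and barcode and not normalized. Per the file headers they were made with Cell Ranger 3.1.0, and the submitters' processing notes name mm10 and Seurat 3.2.1. The kit was the 3′ v3.1 chemistry, which counts transcript ends, so levels of different genes are not compared. The filter of the study's methods was applied: over 700 and under 8000 genes, and a mitochondrial share under 5%. The mitochondrial share rested on 2 features.

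The 8 genes and the pathway list were chosen with earlier results of these data known. Counts were summed per library and class, and no test across mice was possible. Ratios were computed for genes with at least 20 counts over both libraries, with exact Clopper-Pearson intervals, exact Poisson intervals on CPM, and a floor of 3 counts for a library at 0. Intervals cover counting error only. The code was tested on simulated data. Clustering used 3000 variable features, of which 2976 stayed after the genes studied were left out, 50 principal components, 15 neighbours and Leiden resolution 2. A cluster took the class with the most markers among its 10 leading genes, where at least 3 markers of that class were raised 2-fold. With only 1 marker among the leading genes, 50% of the markers also had to be raised. With 0 there, 75% had to be raised, and at least 2-fold the share of the next class. Ties followed the same 2-fold rule. This rule was set after the clusters were seen. Classes were compared where both libraries held at least 20 cells. Doublets called by Scrublet (0, 4, 15, 141 and 157 cells) were kept, and leaving them out was an alternative. In both unsorted pnd7 libraries the caller marked under 0.5% of cells.

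Genes named are the 8 members in every library and class, Csf2rb2, the 3 highest and 3 lowest listed genes past the fold in each comparison, the 3 genes most like each member and class markers. Leading genes of clusters, the members of the Jak-Stat group and the genes checked in type I-like cells were added after their values were seen. Alternatives covered the filter, scaling, weighting of cells, thinning to 1000 counts, doublets, resolution 1, Seurat 5.3.0 integration with sctransform 0.4.2 in R 4.3.3, and classes given to single cells from their markers. The other steps ran in scanpy 1.11.5 and matplotlib 3.10.9 under Python 3.11.15, with scipy 1.17.1 for the intervals, pandas 2.3.3 and numpy 2.4.6. Promoters and positions came from RefSeq tables of GRCm38.p6. Values of some listed genes are not reported here.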

Additional observations from a re-analysis of the deposited data

Results flagged for a closer look

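Csf3r, the G-CSF receptor, moved in opposite directions with hyperoxia at the 2 ages. Its log2 ratio of hyperoxia against air was -0.55 (-0.88 to -0.23) at pnd7 and 0.56 (0.37 to 0.75) at pnd60. With 1 library per condition the difference between the ages was not tested. Neutrophil-like cells held 34.4% and 34.1% of its counts in the pnd7 libraries and 49.5% and 61.0% in those at pnd60, and they made up 0.693%, 1.12%, 0.705% and 1.24% of cells in air pnd7, hyperoxia pnd7, air pnd60 and hyperoxia pnd60. The pnd7 value was -0.09 as a mean over cells and -0.19 (-0.89 to 0.48) after thinning, and the pnd60 value was 0.15 with the looser filter and 0.18 over all barcodes.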

How the results depend on the processing

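No paired analysis was possible because there was only 1 library per condition. Of 428 alternative values of single ratios, 346 stayed within the interval of the reported value, 82 moved outside it and 0 of those called changed sign. Of 74 alternative counts of genes past the fold or keeping their leading class, 61 were within 1.5 times the reported count.

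The other 13 were these. For pnd60 against pnd7 in air, reported as 1 gene, the count was 2 with the looser filter (500 genes, 10% mitochondrial counts), 5 over all deposited barcodes, and 0 with size factors, as a mean of cell CPM and after thinning. For the same after hyperoxia, reported as 3, it was 1 as a mean of cell CPM and 1 after thinning. For sorted against unsorted hyperoxia, reported as 7, it was 4 after thinning. Within alveolar macrophage-like cells, reported as 1, it was 0 after Seurat integration, by each cell's own markers and after thinning. Integration gave 241 and 86 cells of the class in place of 412 and 63, with Csf2rb at 0.66 and Csf2ra at -0.10. Of 7 members, 2 kept their leading class after integration and 2 by own markers. They were Csf1r and Csf3r. Il34 went from type II-like to pericyte-like cells and Csf2rb from plasmacytoid dendritic cell-like to alveolar macrophage-like cells. Csf2rb turned to -0.22 with age in air as a mean of cell CPM. The causes were not tested. With 1 library per condition no spread between mice is known, and classes of few cells, the basophil or mast cell-like, mesothelial-like, ILC2-like and pnd7 neutrophil-like ones, limit the values given for them.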

Other observations

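Some unnamed clusters also held counts of the 8 genes. A cluster of 101 cells led by Cd209a, Ccl17 and Cd74, genes of antigen-presenting cells, had Csf2ra at 564.2 CPM in 89.1% of its cells, Csf2rb at 229 CPM and Csf1r at 161 CPM, with no count of any ligand. A cluster of 103 cells led by Sprr1a, Areg and Krt8, genes of injured or stressed epithelium, held 18 counts of Il34, or 25.8 CPM, and 14 of Csf2, or 20.1 CPM.

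Of the few Csf3 molecules, 3 of the 5 in the sorted library were in C1q macrophage-like cells and 1 was in an alveolar macrophage-like cell, while both in air pnd7 were in type II-like cells.

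Low counts of receptor chains in non-myeloid cells differed between the pnd7 libraries. Alveolar fibroblast-like cells held 21 counts of Csf1r and 35 of Csf2rb in 142 cells of air pnd7, and 0 of either in 194 cells of hyperoxia pnd7. With hyperoxia pnd7 set to the floor of 3 counts, the log2 ratios were -3.1 and -3.84. Whether these are molecules of other cells was not tested.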
